A study of Mus musculus with 12 samples.

Results

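The cells described here are regulatory T cells in the G1 phase of the cell cycle, from mouse tumours. They are the cells that the authors' deposited table places in cluster 2 and to which it assigns the phase G1, 3278 of the 30749 cells in all. The tumours were MCA205 fibrosarcomas grown under the skin of C57Bl/6 mice. All 6 mice were injected with 300000 tumour cells, received oxaliplatin, a platinum drug, at 10 mg/kg after 8 days, and received 200 µg of an antibody to the inhibitory receptor PD-1 another 8 days later. In 3 mice an antibody neutralising acyl-CoA binding protein (ACBP, the product of the gene Dbi) was given as well, and the 3 control mice received the isotype IgG2a. Both were given at 2.5 mg/kg, starting 2 days before the chemotherapy, on every other day until the day before anti-PD-1. There is no group without chemotherapy and anti-PD-1, and the sources used here do not give the age and sex of the mice. T cells were sorted from tumours taken 2 days after anti-PD-1, CD4 and CD8 cells were mixed in equal numbers, and 1 library of 5′ gene expression and 1 of T cell receptors was made per mouse.

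Regulatory T cells are CD4 T cells that hold other immune cells back, and the transcription factor FOXP3 defines them. They take up interleukin-2 through a receptor that contains CD25 (the product of Il2ra), and inhibitors of the SOCS family, which interleukin-2 and other cytokines switch on, dampen that signal. In tumours, many of them carry the surface receptor KLRG1 and make amphiregulin (Areg), a growth factor of tissue repair, or interleukin-10.

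The isotype mice contributed 872, 607 and 582 cells and the anti-ACBP mice 552, 387 and 278. Summed over these cells, the depth ran from 1855835 to 6799160 UMIs (unique molecular identifiers, each standing for 1 captured RNA molecule) per mouse, and the median per cell from 3550.5 to 6656.5, with overlapping groups. The median share of UMIs from ribosomal protein genes was 18.5%, 17.1% and 17.6% in the isotype mice and 16.4%, 16.2% and 15.5% in the anti-ACBP mice, so the groups did not overlap in it, and its part in the results below was not tested. Mitochondrial shares had medians of 0.462% to 0.637% and overlapped. Of these cells, 115 had a cell barcode that also occurred in another library. Among 312 barcodes shared between libraries for which more than 1 library gave a receptor, 0 had the same receptor beta chain. Cells with more Cd8 than Cd4 UMIs made up 4.24%, 2.14% and 4.81% of the cells of the isotype mice and 5.43%, 5.94% and 5.76% of those of the anti-ACBP mice, without overlap. Their part was not tested beyond fits in cells chosen by their Cd4, Cd8, Foxp3 or conventional CD4 marker UMIs.

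The cells carried the markers of their label. To compare cells of unequal depth, each cell was thinned to 2000 UMIs, which left out 130 shallower cells. Foxp3 was then found in 61.4% of the G1 regulatory T cells, 0.95% of the G1 CD4 cells of cluster 1 (conventional CD4 T cells) and 0.64% of the G1 cells of cluster 0 (CD8 T cells). The value in CD8 cells serves as background, with a median of 5884.5 UMIs per cell before thinning against 5128.5 in the regulatory T cells. Ikzf2, which encodes the transcription factor Helios, was found in 66.5% against 9.73% in the CD8 cells, and Il2ra in 76.5% against 14.7%. Klrg1 was found in 52.1% against 1.48% and Areg in 31.8% against 1.35%. Granzyme B (Gzmb) is not restricted to regulatory T cells, and it was found in 87.1% of them, 63.5% of the CD8 cells and 11.8% of the CD4 cells of cluster 1. Cd40lg, a helper T cell ligand, was found in 4.80% of the regulatory T cells and 25.1% of the CD4 cells of cluster 1. Since clusters rest on the expression of the same cells, these shares are a description. Without thinning, a Foxp3 UMI was present in 80.4%, 76.9% and 77.1% of the cells of the isotype mice and in 75.0%, 83.7% and 82.7% of those of the anti-ACBP mice, and the groups overlapped.

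**Figure D1:**
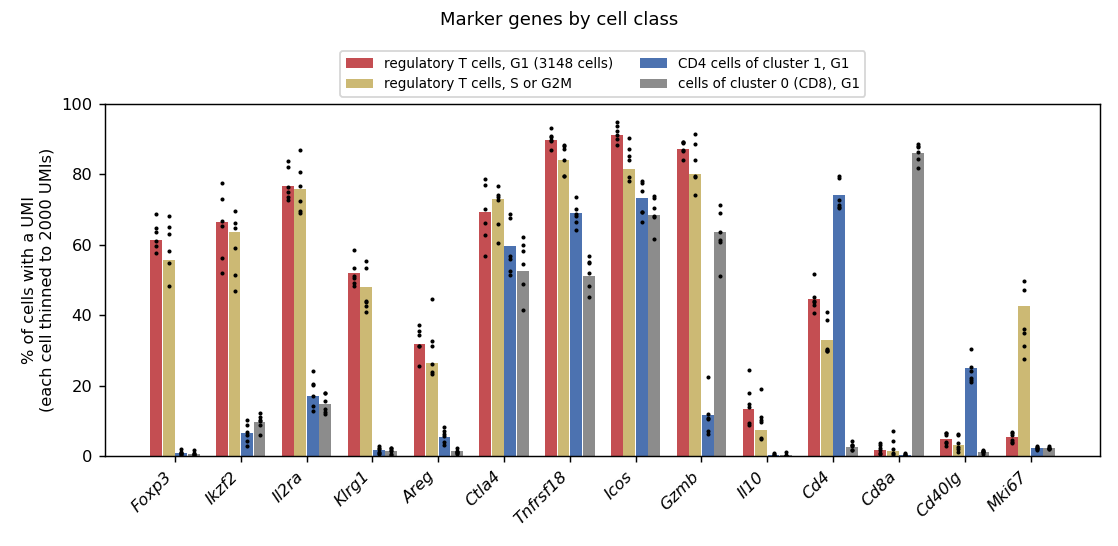
Share of cells (y axis, %) with at least 1 UMI of each gene (x axis) after thinning each cell to 2000 UMIs, in G1 regulatory T cells and 3 other classes; bars pool all cells and points are the 6 mice. Foxp3 stands at 61.4% in the G1 regulatory T cells and below 1% in both other G1 classes, and Mki67 at 5.53% in G1 against 42.5% in S or G2M regulatory T cells.

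The population was not uniform. Cells with a thinned Klrg1 UMI (1640 cells) had 1.83 times as much Il10, 2.09 times as much Penk, the precursor of an opioid peptide, and 1.51 times as much Gzmb as the 1508 cells without one. Il10 was higher in 5 of 6 mice, and Penk and Gzmb in 6 of 6. The same cells had less Areg, at 6.36 against 11.2 UMIs per 10000, with Areg higher in the Klrg1 cells in only 1 of 6 mice. In turn, Klrg1 was lower in cells with a thinned Areg UMI, at 5.36 against 6.41 UMIs per 10000, and higher in them in 1 of 6 mice. Klrg1 and Areg, both effector markers of regulatory T cells, were thus each lower, but not absent, in cells with the other. These values are UMI amounts and not shares of cells. Nrp1, the receptor neuropilin-1, was 0.38 times as high in the Klrg1 cells, and higher in them in 0 of 6 mice. In the 1001 cells with an Areg UMI, Nrp1 was 2.92 times as high as in the 2147 without one, and Il1rl1, the receptor for the alarmin interleukin-33, 1.76 times, each in 6 of 6 mice. Gzmb (0.67 times) and the chemokine receptor Cxcr3 (0.60 times) were lower in the Areg cells, in 6 of 6 mice. These splits describe cells of the same 6 mice and were not tested.

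A receptor beta chain could be assigned to 603, 334 and 358 cells of the isotype mice and to 419, 268 and 187 of the anti-ACBP mice. Cells of a mouse with the same beta chain V gene and CDR3 (the stretch of the chain that differs most between clones) were counted as 1 clone, which gave 989 clones, of which 3 occurred in more than 1 mouse. The largest clone held 54, 43 and 26 cells in the isotype mice and 140, 22 and 13 in the anti-ACBP mice. The CDR3 of each mouse's largest clone is shown because a single one of them, in anti-ACBP 1, makes up 33.4% of that mouse's typed cells and enters every summed value of that mouse. The bases run from the conserved cysteine codon to the conserved phenylalanine codon, both in capitals.
Isotype 1, TRBV5 and TRBJ2-3, 54 cells: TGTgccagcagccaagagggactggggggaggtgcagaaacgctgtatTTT
Isotype 2, TRBV1 and TRBJ1-1, 43 cells: TGCacctgcagtgccacagaagtcttcTTT
Isotype 3, TRBV3 and TRBJ2-1, 26 cells: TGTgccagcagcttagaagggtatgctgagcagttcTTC
Anti-ACBP 1, TRBV19 and TRBJ2-1, 140 cells: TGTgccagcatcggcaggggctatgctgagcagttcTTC
Anti-ACBP 2, TRBV13-1 and TRBJ1-4, 22 cells: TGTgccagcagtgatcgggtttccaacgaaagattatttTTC
Anti-ACBP 3, TRBV3 and TRBJ1-1, 13 cells: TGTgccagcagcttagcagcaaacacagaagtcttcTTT
The clones differ in V gene, J gene or both. In isotype 1 the largest clone had more cells in S or G2M (59) than in G1, whereas in anti-ACBP 1 it had 25 in S or G2M beside its 140 in G1. A Foxp3 UMI was found in 88.9% of the G1 cells of the former and 80.0% of those of the latter.

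In each mouse, 58.4% to 73.3% of the typed cells belonged to a clone of at least 2 cells. At an equal number of 187 typed cells per mouse, the expected share of cells in a clone of at least 2 was 53.9%, 64.8% and 48.9% in the isotype mice and 65.8%, 59.1% and 60.4% in the anti-ACBP mice. The groups overlapped, and the difference of 5.89 percentage points did not pass an exact two-sided permutation test (p = 0.3, and 0.45 adjusted over the 3 receptor measures), whose smallest possible p for 3 against 3 mice is 0.1. The share of typed cells whose beta chain was also found in S or G2M cells of cluster 2 was 59.0%, 53.9% and 49.2% against 56.8%, 45.9% and 31.6% (difference of -9.28 points, exact permutation p = 0.3, adjusted 0.45). The anti-ACBP mice also had fewer S or G2M cells in cluster 2 to match, 151, 84 and 48 against 469, 260 and 308. At equal numbers of those cells the difference was 5.31 points in the other direction (exact permutation p = 0.5), so no direction is given for the sharing with dividing cells. Beta chains shared with CD4 cells outside cluster 2 were carried by 37.3%, 28.4% and 23.7% of typed cells in the isotype mice and 51.6%, 7.09% and 16.6% in the anti-ACBP mice (exact permutation p = 0.8). The value of 51.6% in anti-ACBP 1 includes the clone of 140 cells, of which only 2 cells lay in that other class.

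**Figure D2:**
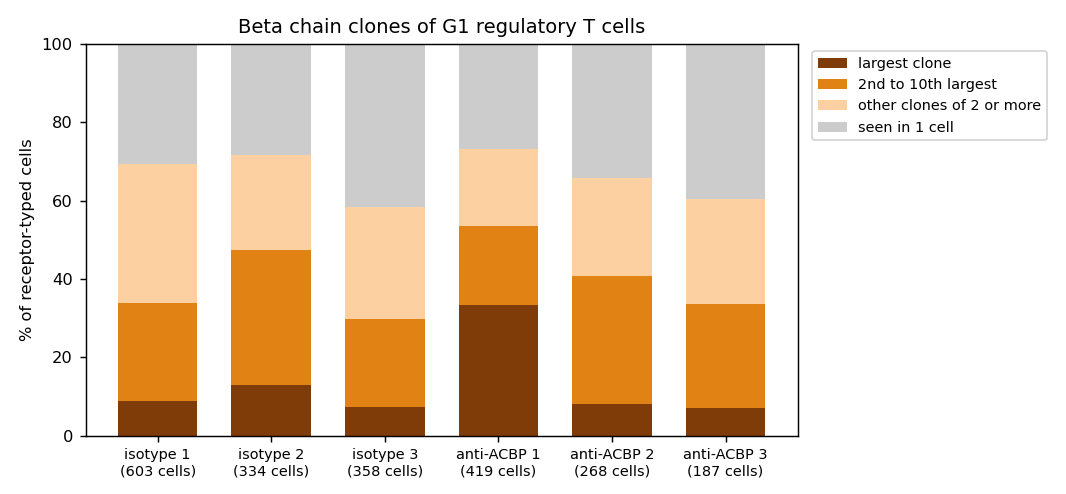
Share of receptor-typed G1 regulatory T cells (y axis, %) of each mouse (x axis) that belong to its largest clone, its 2nd to 10th largest, other clones of 2 or more cells, or are seen once. The largest clone of anti-ACBP 1 takes 33.4% of its typed cells, and the largest clones of the other 5 mice take 6.95% to 12.9%.

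The share of cluster 2 cells assigned to G1 was higher with anti-ACBP. It was 65.0%, 70.0% and 65.4% in the isotype mice and 78.5%, 82.2% and 85.3% in the anti-ACBP mice. All 3 anti-ACBP mice lay above all 3 isotype mice, and the means were 66.8% ± 2.78 and 82.0% ± 3.38 (SD, n = 3), a difference of 15.2 percentage points at the smallest p that the exact permutation test can give (0.1). Mki67, a gene of dividing cells, was counted over all cluster 2 cells whatever their phase. At 2000 UMIs per cell it was found in 21.6%, 15.2% and 21.2% of those of the isotype mice and in 9.52%, 10.1% and 7.55% of those of the anti-ACBP mice (exact permutation p = 0.1). Mki67 is itself a G2 and M phase gene and may have entered the phase calls, so its share is no separate check of them. Cluster 4 holds no cell in G1. With its Foxp3 cells, from 1 to 21 per mouse, counted among the regulatory T cells, the G1 shares were 61.1%, 67.4% and 62.4% against 75.7%, 79.8% and 83.3%.

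The G1 share was also higher on average with anti-ACBP in the other clusters that hold G1 cells. In cluster 1 the share was taken over all its cells, not only those with more Cd4 than Cd8 UMIs. It was 83.1%, 82.4% and 81.3% in the isotype mice and 81.5%, 84.8% and 84.3% in the anti-ACBP mice, with overlap (exact permutation p = 0.3). In the CD8 cells of cluster 0 it was 79.9%, 68.9% and 67.0% against 81.6%, 80.1% and 81.1%, without overlap (exact permutation p = 0.1). In cluster 8 it was 73.0%, 55.6% and 62.8% against 73.9%, 78.9% and 78.6%, again without overlap, a difference of 13.4 percentage points (exact permutation p = 0.1), close to that of cluster 2. In clusters 3, 5, 6 and 7 the differences were 5.97 to 9.21 points, with overlap (exact permutation p = 0.2 to 0.4). Whether the shift differs between clusters was not tested. Among the cells called G1, a thinned Mki67 UMI was found in 6.10%, 6.57% and 6.83% of cells of the isotype mice and 3.71%, 4.46% and 4.06% of those of the anti-ACBP mice, given as a description because the phase chose these cells. The sources used here do not say how the phases were assigned, and genes of S and G2M are taken as used by the choice of cells.

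**Figure D3:**
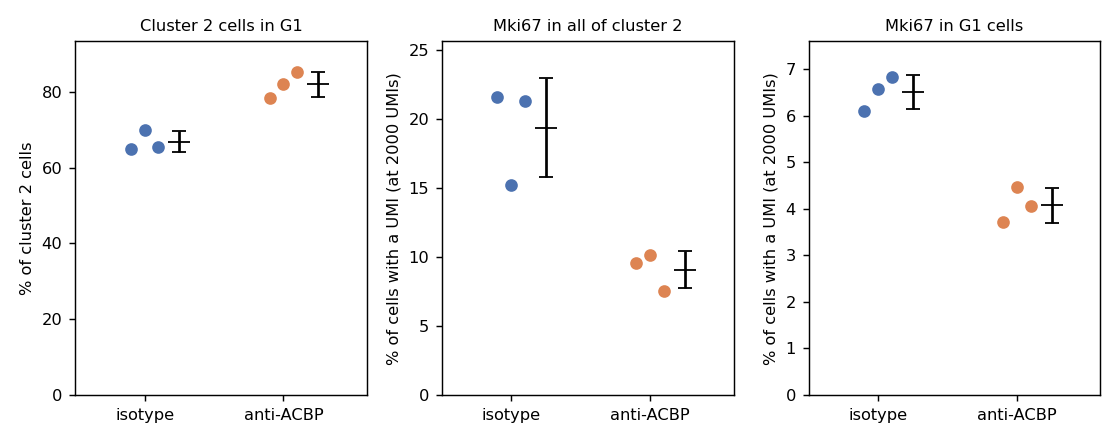
Percent of cluster 2 cells assigned to G1 (left), and percent of cells with an Mki67 UMI at 2000 UMIs per cell in all of cluster 2 (middle) and in its G1 cells (right); points are mice, bars the mean ± SD of 3. In each panel the 3 mice of a group lie apart from the other 3, with G1 shares of 65.0% to 70.0% and 78.5% to 85.3%.

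Gene expression was then compared between the groups in the G1 cells alone, on UMIs summed per mouse. Of 9471 genes tested, 161 passed (1.70%; edgeR quasi-likelihood test, Benjamini-Hochberg adjusted p under 0.05), with 89 higher (0.940%) and 72 lower (0.760%) after anti-ACBP. Each of the 161 separated the 3 mice of one group from the 3 of the other. So did 22.0% of all tested genes, 11.5% with higher and 10.5% with lower levels after anti-ACBP. The median log2 fold change of all tested genes was 0.00. Levels below are UMI counts scaled to CPM, given for isotype 1, 2 and 3 and then anti-ACBP 1, 2 and 3, and log2 fold changes are anti-ACBP over isotype with their SE. CPM of a 5′ tag library are not divided by gene length, so levels are compared between mice and not between genes. Nothing in the labels beyond the mouse separates the libraries, so no batch could be compared, and p-values measure the spread between these mice.

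How many genes passed depended on single mice. It was 43 without isotype 3, 228 without isotype 1 and 268 without isotype 2, and 81, 48 and 56 without anti-ACBP 1, 2 and 3. All 161 genes kept their direction in each of these fits. Genes that separate the groups can hardly reverse when 1 mouse is left out, so the kept direction is no check of stability. Of 55 genes that passed and are named by the rule given with the methods, 19 passed in all 6 fits that left out a mouse: Socs1, Socs3, Sgk1, Txnip, Gzmd, Mir155hg, Irf4, Rela, Hexim1 and Tubb4b among the higher, and Ddit4, Ppp1r3b, Abhd18, Vill, Trim59, Pdk1, Hk2, Junb and Ifi203 among the lower.

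Socs1 and Socs3, genes that restrain cytokine signalling, both rose. Socs1, which blocks the kinases below the interleukin-2 and interferon receptors, had 87.4, 113 and 91.5 CPM in the isotype mice and 244, 272 and 276 CPM in the anti-ACBP mice. Every anti-ACBP mouse lay far above every isotype mouse, and the log2 fold change was 1.45 ± 0.11 (edgeR adjusted p = 1.7e-05, the smallest of all genes). The change was spread over cells: at 2000 UMIs per cell, Socs1 was found in 15.9%, 18% and 14.2% of cells of the isotype mice and in 33.6%, 38.1% and 36.5% of those of the anti-ACBP mice. Without the 10 largest clones of each mouse the log2 fold change was 1.31. Socs3, a relative that restrains interleukin-6 family signals, had 29.4, 42.2 and 22.1 CPM against 70.5, 69.3 and 82.6 CPM, also without overlap (1.23 ± 0.19, edgeR adjusted p = 0.0121). Of 21 genes of the interleukin-2 and STAT5 list, Socs1 and Socs3 rose, Ccnd3 fell, and 18 did not pass, with a median log2 fold change of 0.22. The called share was 14.3%, against 1.70% of all tested genes. Il2ra itself had 1140, 1177 and 1387 CPM against 1254, 1682 and 1327 CPM, overlapped, and had a log2 fold change of 0.20 ± 0.11 (edgeR adjusted p = 0.416).

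The 250 bases before the annotated start of Socs3 are shown because cytokine-driven STAT factors are known to bind the spaced palindrome TTCNNNGAA, which reads the same on both strands. The window (RefSeq, GRCm38.p6, minus strand, chr11:117969367-117969616) holds 1 such match, in capitals, which begins 154 bases before the start.
Socs3: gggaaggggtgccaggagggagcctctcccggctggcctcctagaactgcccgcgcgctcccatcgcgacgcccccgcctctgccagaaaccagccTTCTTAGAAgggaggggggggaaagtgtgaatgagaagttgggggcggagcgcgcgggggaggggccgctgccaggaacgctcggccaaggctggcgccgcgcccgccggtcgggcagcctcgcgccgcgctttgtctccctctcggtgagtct
The same letters are in 2302 of 32817 such windows of the annotation (7.01%), and the window of Socs1 (chr16:10785537-10785786, minus strand) holds 0 matches. The match describes the sequence, and factor binding was not measured.

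Genes of nutrient sensing moved in opposite directions. Ddit4, which encodes the mTORC1 inhibitor REDD1, had 1263, 1651 and 1691 CPM in the isotype mice and 655, 663 and 697 CPM in the anti-ACBP mice. It fell by 1.19 ± 0.10 on the log2 scale (edgeR adjusted p = 9.9e-05), and the 3 anti-ACBP mice lay close together, far below the lowest isotype mouse. A thinned Ddit4 UMI was found in 80.4%, 82.7% and 83.9% of cells against 56.4%, 58.5% and 56.8%. Txnip, an inhibitor of glucose uptake and of thioredoxin, went the other way, with 90.4, 91.1 and 102 CPM against 229, 191 and 183 CPM (1.10 ± 0.10, edgeR adjusted p = 0.00012). Sgk1, a kinase controlled by mTORC2, had 19.8, 14.3 and 22.1 CPM against 58.4, 50.7 and 66.7 CPM (1.63 ± 0.16, edgeR adjusted p = 0.0002). Irs2, an adaptor of insulin signalling, had 17.1, 8.31 and 10.0 CPM against 27.1, 26.0 and 28.1 CPM (1.09 ± 0.23, edgeR adjusted p = 0.0358). None of these 3 genes overlapped between the groups. Of the 18 genes on this list, these 3 rose, Ddit4 fell and 14 did not pass. Thus 22.2% of this list were called, against 1.70% of all tested genes.

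Genes of glycolysis and hypoxia fell where they passed. Hk2, which encodes a hexokinase, the enzyme of the first step of glycolysis, had 74.0, 92.4 and 86.7 CPM in the isotype mice and 48.4, 41.1 and 32.3 CPM in the anti-ACBP mice (-1.02 ± 0.14, edgeR adjusted p = 0.00397). Pdk1, a kinase that keeps pyruvate out of the mitochondrion, had 36.3, 37.2 and 31.7 CPM against 18.3, 12.8 and 19.1 CPM (-1.09 ± 0.17, edgeR adjusted p = 0.00765). Both were separated by group without overlap. The glycolytic enzyme genes Tpi1 (-0.53) and Pgam1 (-0.64) and the hypoxia-induced lipid droplet gene Hilpda (-0.54) fell too. Of 34 tested genes on the list, these 5 fell, 0 rose and 29 did not pass, and 32 had a negative log2 fold change (median -0.26). The called share of 14.7% stands against 1.70% of all tested genes. The glucose transporter gene Slc2a1 (-1.14, edgeR adjusted p = 0.0543) stood just outside the threshold. The abundant Gapdh (-0.21), Ldha (-0.13) and Pkm (0.01) were well outside it.

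The promoter windows of Ddit4 and Hk2 are shown because both genes fell and both are known targets of hypoxia-inducible factors, whose core motif is ACGTG. It was searched on both strands, and on the other strand it reads CACGT. Ddit4 (RefSeq, GRCm38.p6, chr10:59951771-59952020, minus strand) holds 1 match, 187 bases before the start. Hk2 (chr6:82774455-82774704, minus strand) holds 2, at 226 and 52 bases before the start. Matches are in capitals.
Ddit4: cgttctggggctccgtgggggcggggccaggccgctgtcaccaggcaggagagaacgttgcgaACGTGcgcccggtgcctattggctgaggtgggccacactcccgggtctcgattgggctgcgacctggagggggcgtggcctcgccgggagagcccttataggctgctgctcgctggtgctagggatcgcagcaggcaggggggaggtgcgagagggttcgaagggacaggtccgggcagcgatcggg
Hk2: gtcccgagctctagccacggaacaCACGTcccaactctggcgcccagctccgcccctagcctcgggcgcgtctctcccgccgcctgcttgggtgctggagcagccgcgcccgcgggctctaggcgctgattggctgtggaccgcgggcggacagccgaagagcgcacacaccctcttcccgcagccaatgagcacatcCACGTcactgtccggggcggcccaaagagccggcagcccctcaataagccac
The core motif is short and is present in 5439 of the 32817 windows (16.6%). The window of Pgam1 and a window of Hilpda also hold 1 each, and those of Pdk1 and Tpi1 hold 0.

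**Figure D4:**
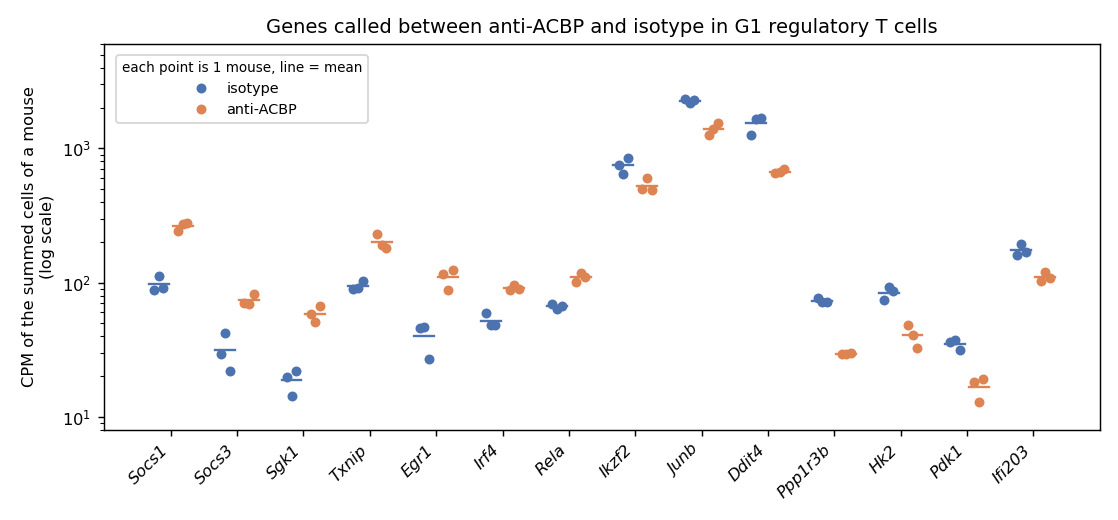
CPM on a log axis (y) of 14 called genes (x), with 1 point per mouse and a line at the group mean, isotype and anti-ACBP side by side. Socs1 lies at 87.4 to 113 CPM in the isotype mice and 244 to 276 CPM in the anti-ACBP mice, and Ddit4 at 1263 to 1691 and 655 to 697 CPM.

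Some genes that T cell receptor signals switch on early rose. Of 31 tested, 6 rose (Egr1, Egr2, Irf4, Ier2, Dusp6 and Icos), 0 fell and 25 did not pass, with a median log2 fold change of 0.33. That is 19.4% called, against 1.70% of all tested genes. Egr1, an immediate early transcription factor, had 45.6, 46.9 and 26.9 CPM in the isotype mice and 117, 88.2 and 124 CPM in the anti-ACBP mice (1.42 ± 0.21, edgeR adjusted p = 0.0203). Irf4, which drives the effector programme of regulatory T cells, had 59.7, 48.5 and 48.2 CPM against 88.2, 96.6 and 89.5 CPM (0.79 ± 0.11, edgeR adjusted p = 0.00431). Both genes were higher in every anti-ACBP mouse than in any isotype mouse. Mir155hg, the host transcript of the microRNA miR-155, had 12.3, 19 and 9.23 CPM against 35.7, 30.8 and 32.3 CPM (1.29 ± 0.21, edgeR adjusted p = 0.00963). Rela, the p65 subunit of NF-κB, had 69.5, 63.8 and 67.4 CPM against 101, 118 and 110 CPM (0.70 ± 0.10, edgeR adjusted p = 0.00397). These were separated by group as well, and in the NF-κB list Traf1 (0.42) rose with Rela while 18 of 20 genes did not pass. In that list 10% were called.

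Co-stimulatory receptors also had members that rose: Cd28 (0.42), Icos (0.31) and Tnfrsf8, which encodes CD30 (0.57), of 15 tested, with 0 lower and 14 of 15 log2 fold changes above 0. The called members make up 20% of that list, against 1.70% of all tested genes. Tnfrsf8 was very even within groups, at 25, 24.9 and 24.9 CPM against 37.8, 35.3 and 38.1 CPM. Its call nevertheless ended in all 6 fits that left out a mouse. Junb, an AP-1 subunit, fell, with 2348, 2189 and 2282 CPM in the isotype mice and 1267, 1400 and 1549 CPM in the anti-ACBP mice (-0.69 ± 0.08, edgeR adjusted p = 0.00078). It was found in 83.8%, 85.5% and 86.0% of thinned cells against 69.4%, 73.2% and 73.4%. Atf3, a stress-induced factor that pairs with AP-1 proteins, rose by 1.75 ± 0.31 (edgeR adjusted p = 0.0233) from a low level of 4.42 to 10.6 CPM, but 1 cell held 40% of its UMIs in anti-ACBP 3. Egr1, Ier2, Atf3 and Junb are also known to respond to tissue dissociation. Of 24 genes on the heat and dissociation list these 4 changed, 3 up and 1 down, the median log2 fold change was 0.04, and the part of dissociation in these genes was not tested. On that list 16.7% were called.

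Among cytotoxic genes, 3 of 20 tested rose and 0 fell (median 0.56), so 15% were called, against 1.70% of all tested genes. Serpinb9, an inhibitor that protects cells from their own granzyme B, had 108, 155 and 136 CPM in the isotype mice and 277, 212 and 205 CPM in the anti-ACBP mice (0.82 ± 0.15, edgeR adjusted p = 0.0387). Klrk1, the activating receptor NKG2D, had 7.12, 13.6 and 9.63 CPM against 20.9, 18.9 and 33.4 CPM (1.29 ± 0.28, edgeR adjusted p = 0.0420). The granzyme gene Gzmd rose (1.71), from a range of 2.01 to 4.32 CPM to one of 10.3 to 11.6 CPM, on 5 to 37 UMIs per mouse, with 62.5% of those of anti-ACBP 2 in 1 cell. Granzyme genes are near-identical and could share reads. Klrk1 and Gzmd are typical of CD8 and natural killer cells, and CD8 lineage markers had a summed level of 167 to 186 CPM in the isotype mice and 192 to 233 CPM in the anti-ACBP mice, without overlap. Runx3 held 68.9% of the UMIs of that list and overlapped between groups. Cd8a had 15.3, 10.9 and 17.8 CPM against 21.2, 38.6 and 45.3 CPM, without overlap. Cd8b1 had 28.8, 21.1 and 40.3 CPM against 48.0, 50.5 and 63.0 CPM, also without overlap. The part of CD8 cells in the calls of Klrk1 and Gzmd was not tested beyond the following fits. In cells with more Cd4 than Cd8 UMIs, Klrk1 had a log2 fold change of 1.74 and Gzmd of 1.21, and neither passed (edgeR adjusted p = 0.0647 and 0.321). In cells with a Foxp3 UMI, Klrk1 had 1.67 and passed (edgeR adjusted p = 0.0217). Gzmd had 1.46 there and did not pass (edgeR adjusted p = 0.402). In cells with a Foxp3 UMI and no UMI of conventional CD4 or CD8 markers, both genes had too few UMIs to be tested. Gzmb, found in most of the cells, had a log2 fold change of 0.40 and did not pass (edgeR adjusted p = 0.276).

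Several of the largest increases came from transcripts of few UMIs. Ovol2, a transcription factor gene of epithelia, had 2.57, 2.0 and 1.61 CPM in the isotype mice and 16.8, 6.42 and 9.0 CPM in the anti-ACBP mice (2.31 ± 0.40, edgeR adjusted p = 0.0181), and the largest clone of anti-ACBP 1 held 40.4% of the 57 UMIs there. Egr2 (2.19) and the follicular homing receptor Cxcr5 (1.92) rose from at most 2.66 CPM. Akap6 (1.57), an anchoring protein of kinase A, the p53 effector Perp (1.28) and Hexim1 (1.17), an inhibitor of transcription elongation, rose from at most 28.2 CPM. In Perp, 1 cell of anti-ACBP 1 held 27.2% of that mouse's UMIs. Of these, Hexim1 passed in all 6 fits that left out a mouse.

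Type I interferon response genes fell where they passed. Of 43 tested, 8 fell (Isg20, Ifi27l2a, Ifi203, Bst2, Samd9l, Trim30a, Zbp1 and Phf11b), 0 rose and 35 did not pass, and 39 had negative log2 fold changes (median -0.41, against 0.00 over all genes). The called share was 18.6%, against 1.70% of all tested genes. Ifi203, a nuclear DNA sensor family member, had 161, 193 and 170 CPM in the isotype mice and 102, 120 and 107 CPM in the anti-ACBP mice (-0.66 ± 0.10, edgeR adjusted p = 0.0073). Isg20, an antiviral exonuclease, had 356, 428 and 460 CPM against 280, 318 and 282 CPM (-0.50 ± 0.10, edgeR adjusted p = 0.0292). Both were separated without overlap, as was Bst2, the virus tether tetherin, at 409, 405 and 403 CPM against 325, 272 and 212 CPM (-0.58 ± 0.13, edgeR adjusted p = 0.0458). Ifi203 passed in 6 of 6 fits that left out a mouse, Isg20, Trim30a and Phf11b in 2 of 6 and Bst2 in 1 of 6. With all phases of cluster 2, none of these genes passed (edgeR adjusted p = 0.0510 to 0.240). Their log2 fold changes there were -0.42 to -0.20. The classic interferon-induced genes Ifit1 (-0.71), Ifit3 (-0.83), Oas2 (-1.06) and Isg15 (-0.34) had negative values that did not pass. Of 38 genes of the interferon-gamma list, only Psmb10 (-0.38), an immunoproteasome subunit, fell, while Socs1 and Socs3 rose. The median of that list was 0.00, with 19 positive and 19 negative values, and 7.89% of it was called.

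Regulators of the G1 phase itself fell in part. The cyclin gene Ccnd3, which drives cells out of G1, had 204, 240 and 237 CPM in the isotype mice and 153, 153 and 184 CPM in the anti-ACBP mice (-0.48 ± 0.10, edgeR adjusted p = 0.0348). The inhibitors of cyclin-dependent kinases Cdkn1b (-0.46) and Cdkn2d (-0.53) fell as well, so a driver and 2 brakes of the cycle moved the same way. Btg1, an antiproliferative gene, rose, with 690, 751 and 802 CPM against 912, 981 and 1164 CPM (0.45 ± 0.10, edgeR adjusted p = 0.0361). Of 32 S phase genes tested, 0 passed (median -0.04), and of 28 G2 and M phase genes only Tubb4b, a tubulin, passed, upward (0.75), with a list median of -0.19. Mki67 had 31.5, 29.9 and 33.3 CPM against 19.2, 26.3 and 20.6 CPM, without overlap, and did not pass (-0.51 ± 0.16, edgeR adjusted p = 0.119). The choice of G1 cells bears on these 2 lists, of which 0% and 3.57% were called, against 1.70% of all tested genes.

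Genes of regulatory T cell identity passed in part. Foxp3 had 575, 595 and 615 CPM in the isotype mice and 624, 682 and 657 CPM in the anti-ACBP mice, a log2 fold change of 0.14 ± 0.08 that did not pass (edgeR adjusted p = 0.399). Ikzf2, 1 of the genes that mark the cluster, had 758, 650 and 844 CPM against 496, 600 and 488 CPM and fell by 0.51 ± 0.11 on the log2 scale (edgeR adjusted p = 0.0384), with a call that held in 2 of 6 fits that left out a mouse. In 26 tested genes of regulatory T cell identity, only Icos rose and only Ikzf2 fell. That is 7.69% of the list, against 1.70% of all tested genes. Klrg1 (-0.25 ± 0.08) and Areg (0.33 ± 0.32) did not pass, with edgeR adjusted p of 0.137 and 0.697. Areg varied widely between mice of a group, from 561 to 920 CPM in the isotype and from 720 to 1322 CPM in the anti-ACBP mice.

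Of 19 tested genes through which regulatory T cells suppress others, 0 passed, near the 1.70% called among all tested genes. Of the 19, 14 had positive and 5 negative log2 fold changes (median 0.18). Il10 had the largest value among them, with 64.1, 100.1 and 54.6 CPM in the isotype mice and 138, 124 and 155 CPM in the anti-ACBP mice. The groups did not overlap, which held for 22.0% of all tested genes, and the log2 fold change of 0.93 ± 0.22 missed the threshold (edgeR adjusted p = 0.0969). In anti-ACBP 1, the largest clone held 50.4% of the Il10 UMIs, and without the 10 largest clones of each mouse the value was 0.78. Ctla4, the receptor that strips co-stimulatory ligands from other cells, had 1937, 2280 and 1973 CPM against 1149, 1904 and 1529 CPM (-0.43 ± 0.19, edgeR adjusted p = 0.327). Of 23 cytokines and growth factors tested, 0 passed, with a median of 0.77. Single cells carried much of some of these transcripts: the 580 UMIs of Il2, a cytokine that regulatory T cells hardly make, came from 5 cells in anti-ACBP 1, and 1 of them held 83.3%.

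The gene of the neutralised protein was measured in the same cells. Dbi had 144, 179 and 169 CPM in the isotype mice and 131, 154 and 117 CPM in the anti-ACBP mice, overlapped, and did not pass (-0.28 ± 0.11, edgeR adjusted p = 0.251). An antibody acts on the protein, so the transcript does not check the treatment. Of 7 tested genes for acyl-CoA binding proteins and the ACBP-binding mitochondrial protein TSPO, 0 passed, with values from -0.28 to 0.07. Lipid and cholesterol synthesis (24 tested, median -0.21) and fatty acid uptake and oxidation (19 tested, median -0.02) also had 0 genes that passed, as did inhibitory receptors (14 tested), resting markers (15 tested) and nuclear envelope genes (13 tested). With 1.70% of all tested genes called, counts of 0 in lists of these sizes lie near that share.

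The genes with the largest decreases were mixed in function. Ppp1r3b, which directs a phosphatase to glycogen, had 76.3, 71.8 and 72.3 CPM in the isotype mice and 29.5, 29.2 and 29.7 CPM in the anti-ACBP mice (-1.32 ± 0.11, edgeR adjusted p = 6.2e-05). Both groups were very even in it. Bambi, a decoy receptor of the TGF-beta family, had 15.7, 15.6 and 29.3 CPM against 3.83, 6.42 and 9.0 CPM (-1.68 ± 0.34, edgeR adjusted p = 0.0377). Trim59, a ubiquitin ligase gene, had 75.3, 65.2 and 79.1 CPM against 37.2, 30.2 and 33.4 CPM (-1.12 ± 0.13, edgeR adjusted p = 0.00068). These too were separated by group. Ms4a6c (-1.30), Abhd18 (-1.20), Hmgn3 (-1.20), Sdc3 (-1.16), the villin-like gene Vill (-1.16) and Phf11c (-0.99) completed the decreases. Of the other lists, Il12rb1 (-0.42), the interleukin-12 receptor subunit, and the protease gene Ctss (-0.45) fell, and Sqstm1, the autophagy receptor p62, rose (0.61).

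**Figure D5:**
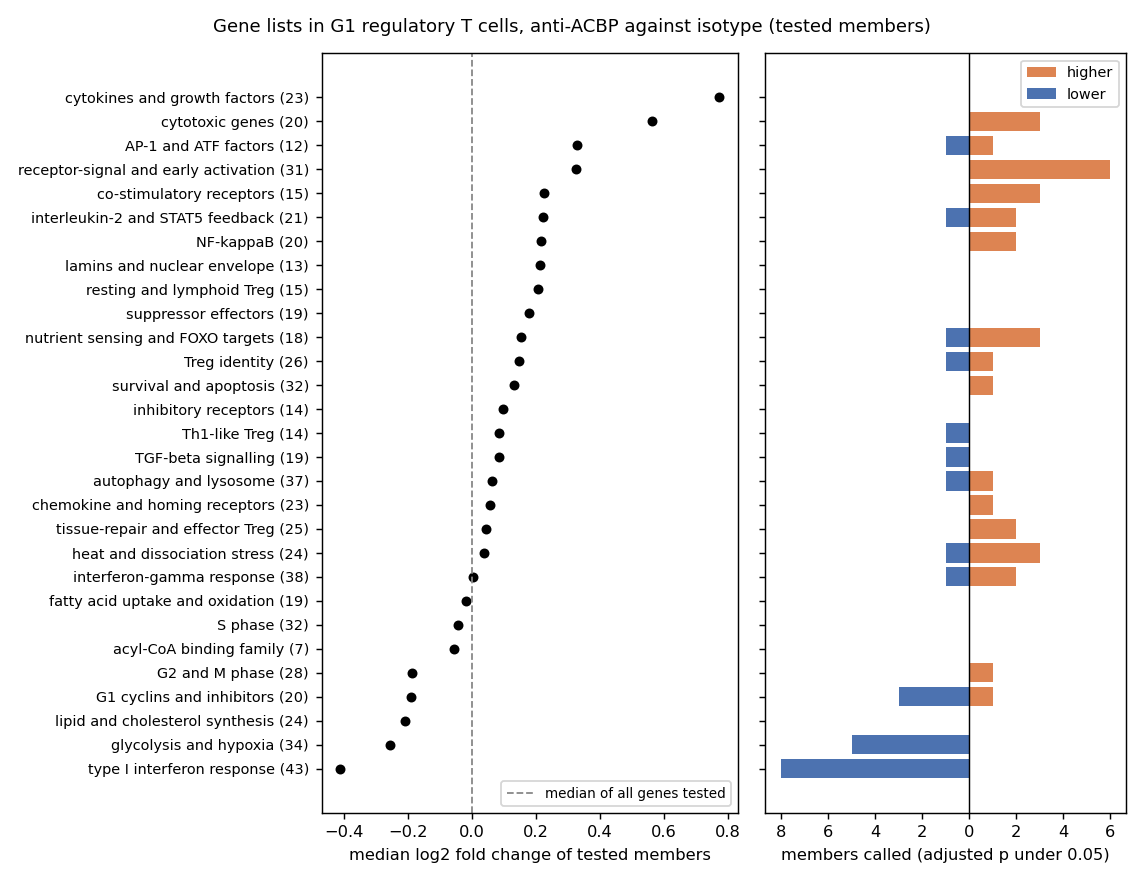
Median log2 fold change, anti-ACBP over isotype, of the tested members of each gene list (left, points; the dashed line is the median of all tested genes), and the number of members called higher or lower (right, bars); the number tested stands beside each list. Receptor-signal genes have 6 higher and 0 lower of 31, type I interferon genes 0 higher and 8 lower of 43, and glycolysis and hypoxia genes 0 higher and 5 lower of 34. Over all tested genes, 1.70% were called.

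Markers of other cells differed in level between lists. The defining macrophage genes Lyz2, Adgre1, C1qa, C1qb and Apoe were at 0 UMIs in all 6 mice, and the whole macrophage list of 10 genes summed to 24.8 to 45.9 CPM, overlapping between groups. Of the UMIs of that list, Cd68 held 77.4% and Itgam 21.7%. Neutrophil, fibroblast and erythroid lists each summed to at most 1.45 CPM, the natural killer list to at most 2.16, the gamma-delta T cell list to at most 6.47, the mast cell list to at most 9.09 and the B and plasma cell list to at most 16.6. The dendritic list of 10 genes summed to 860 to 1135 CPM, overlapping between groups, of which Cd74 (the class II invariant chain) held 69.6% and Cst3 25%. The class II genes H2-Ab1, H2-Eb1 and H2-Aa had 551, 417 and 71 UMIs in all cells. Itgax, Flt3, Xcr1 and Ccl22 had 1 to 16 UMIs each and Clec9a had 0. The endothelial list summed to 36.5 to 59.8 CPM, also overlapping, with 98.4% of its UMIs from Pecam1, 1 from Cdh5 and 0 from Kdr. The 6 markers of conventional CD4 cells summed to 123, 326 and 58.1 CPM in the isotype mice and 581, 358 and 261 CPM in the anti-ACBP mice, overlapped, and contained Il2. Its largest member, Tnfsf11 (34.4% of the UMIs), had 55.0, 83.2 and 32.4 CPM against 165, 131 and 127 CPM, without overlap. The other members overlapped. Lack of overlap held for 22.0% of all tested genes, and the part of conventional CD4 cells was not tested beyond the next fit. In cells with a Foxp3 UMI and no UMI of conventional CD4 or CD8 markers, 133 genes passed, 85 of them among the 153 of the original calls that could be tested there, and all 153 kept their direction. Socs1 (1.49) and Ddit4 (-1.05) passed there too.

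The change after anti-ACBP was next compared between G1 cells and the 1320 S or G2M cells of the same cluster, with each mouse as its own pair. Of 9917 genes tested, 32 differed in their change (0.323%; edgeR quasi-likelihood interaction test), 16 more positive and 16 more negative in G1 (0.161% each). Tex30 rose in G1 (0.75) and had -0.15 in S or G2M, a difference of 0.93 (edgeR adjusted p = 0.0009). In G1 it had 60.3, 47.3 and 71.7 CPM against 110, 96.1 and 99.9 CPM, and in S or G2M 80.4, 60.3 and 83.1 CPM against 83.2, 57.3 and 53.9 CPM, both here scaled to all summed UMIs. Only the G1 cells were separated by group. Bst2 fell in G1 and had 0.07 in S or G2M (difference of -0.60, edgeR adjusted p = 0.00189). The integrin gene Itgb7 (difference of -0.54) and Ass1, the arginine synthesis enzyme (difference of -0.53), had values of -0.29 and -0.48 in G1 and 0.27 and 0.05 in S or G2M, none of which passed alone. Socs1 and Ddit4 were not among the 32. Without anti-ACBP 2, 14 genes differed.

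Compared with the 4155 G1 CD4 cells of cluster 1, 4 of 9999 genes differed in their change (0.0400%; edgeR quasi-likelihood interaction test), 3 (0.0300%) more positive and 1 (0.0100%) more negative in the regulatory T cells. Socs1 rose more in the regulatory T cells (1.45) than its value in the CD4 cells (0.59 ± 0.12, edgeR adjusted p = 0.0806), a difference of 0.86 ± 0.11 (edgeR adjusted p = 0.00023). The CD4 cells had 96.0, 121 and 116 CPM against 144, 166 and 187 CPM, scaled to all summed UMIs, so the 2 kinds of cell had similar levels in the isotype mice and separated in the anti-ACBP mice. Oxsr1, a kinase of ion transport, had 48.8, 54.9 and 69.7 against 200, 115 and 106 in the regulatory T cells and 32.6 to 43.7 against 32.6 to 54.9 in the CD4 cells, a difference of 1.22 (edgeR adjusted p = 0.00023). Its change within the regulatory T cells alone did not pass (1.3, edgeR adjusted p = 0.138), and 40% of its UMIs in anti-ACBP 1 belonged to the clone of 140 cells. The receptor constant gene Trbc2 (difference of 0.66) and Sertad1, a regulator of cyclin-dependent kinases (-0.67), completed the 4. The count was 17 without isotype 2, 13 without anti-ACBP 1 and 32 without anti-ACBP 2. The test has limited reach here: simulated interactions of 2-fold were found in 66% and those of 1.5-fold in 14% of the genes given a change, and in 53% and 10% against the S or G2M cells. Changes were given only to genes with many UMIs in every class. All genes had the same spread, and the classes of a mouse were drawn independently. The reach for transcripts of few UMIs was not measured.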

How the data were processed

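The members and the gene lists were chosen with earlier results of these data known. Expression matrices hold UMI counts per gene and cell, whole numbers deposited without scaling, and the receptor table holds UMI counts per contig, per the file headers. Cell Ranger 7.0.0, Seurat and the build mm10 are named in the submitters' processing notes, with no role given. Clusters, phases and the column DF1 come from the authors' deposited cell table. DF1 was not used to filter, and no doublet caller was run. Cells with 2 or more TRB chains were left out in an alternative. The titles of the samples tie each library code to its group.

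UMIs were summed per mouse, without receptor and immunoglobulin V, D and J segments, and tested with edgeR 4.0.16 in R 4.3.3 (TMM factors, filterByExpr, robust quasi-likelihood F test, two-sided, Benjamini-Hochberg). The biological coefficient of variation (common) was 0.111. In simulated data of 9468 genes, 96% of 2-fold and 51% of 1.5-fold changes were found. The changes were given only to genes with many UMIs, and all genes had the same spread, so these shares do not cover transcripts of few UMIs. Differences in change used the mouse as a block. Gene names follow a rule: Foxp3, Ikzf2, Il2ra, Klrg1, Areg, Ctla4, Il10, Dbi, Socs1, Ddit4 and Mki67; in each direction the 12 called genes of largest change with a mean of 10 CPM or more in either group and no overlap; up to 4 members of each list with a call; and up to 6 genes of each interaction. Other called list members, and genes named though they did not pass, were chosen after their values were seen. Genes named by a number or encoded in mitochondria (9 of the 161 called) are not named. Shares were compared by exact permutation tests in SciPy 1.17.1. Clones share their TRB V gene and CDR3, in cells with exactly 1 TRB chain. Promoter windows are the 250 bases before each RefSeq start (GRCm38.p6). DESeq2 1.42.0 and the alternatives named in the closing section were run beside the main test. A single result is not reported here.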

Additional observations from a re-analysis of the deposited data

Results flagged for a closer look

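For 10 genes the change after anti-ACBP differed between G1 regulatory T cells and another class in the edgeR interaction test. Against G1 CD4 cells of cluster 1, these were Socs1 (0.86), Oxsr1 (1.22), Trbc2 (0.66) and Sertad1 (-0.67), each the log2 fold change in the regulatory T cells minus that in the other cells. Sertad1 passed in 3 of 6 fits that left out a mouse, and the other 3 genes passed in 6 of 6. Without the 10 largest clones of each mouse, the change of Oxsr1 within the regulatory T cells alone was 0.96 and passed (edgeR adjusted p = 0.0437). Its difference from the CD4 cells was not tested without those clones. Against S or G2M regulatory T cells, the values were 0.93 for Tex30, -0.54 for Itgb7, -0.60 for Bst2 and -0.53 for Ass1, and Tex30 passed in 5 of 6 such fits and the others in 6 of 6. Hdc, the histamine-making enzyme, had -5.68, but 194 of its 202 UMIs in the S or G2M cells of anti-ACBP 1 came from 1 cell. Cxcl3, a neutrophil chemokine, had 6.02, on 9, 10 and 3 UMIs in the G1 cells of the isotype mice and 60, 21 and 2 in their S or G2M cells, against 91, 34 and 5 in the G1 cells of the anti-ACBP mice and 2, 1 and 0 in their S or G2M cells. Of the G1 UMIs of Cxcl3, 47.1% in anti-ACBP 2 came from 1 cell and 46.2% in anti-ACBP 1 from 1 clone.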

How the results depend on the processing

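All 161 called genes kept their direction in every alternative in which they could be tested, except 1 of 161 with all phases of cluster 2: Tubb4b, which had -0.10 there. In the fits that left out 1 mouse, the separation of the groups in these genes all but fixed their direction in advance. The number called was 595 with no filter on low counts, 415 with all phases of cluster 2 and 94 with each cell thinned to 2000 UMIs (63 of 151 original calls remained), and ran from 43 to 268 when 1 mouse was left out. It was 176 with DESeq2 (122 of the 161 remained), 161 with RLE size factors, 153 in cells with a Foxp3 UMI, 111 in cells with more Cd4 than Cd8 UMIs and 123 without the 10 largest clones of each mouse. With the replicate number as a block 133 genes passed, 101 of them among the 161. The labels do not say that the numbers pair the mice. Deviations of same-numbered mice correlated at 0.12, -0.086 and 0.0054, and those of differently numbered mice at -0.15 to 0.17. So few mice cannot decide whether the numbers pair them. Genes differing in change from S or G2M cells numbered 74 with no filter and 14 to 43 with 1 mouse left out, and from cluster 1 cells 82 and 4 to 32. The difference in G1 share stayed between 12.8 and 17.4 percentage points. The difference in beta chains shared with CD4 cells outside cluster 2 (-4.76 points) turned to 1.99 with at least 2 cells in the other class and to 1.42 with only CD4 cells that lacked a Foxp3 UMI, the latter chosen after seeing the data, and ran from -18.0 to 4.23 with 1 mouse left out. With beta and alpha chains together, the difference in sharing with S or G2M cells was -16.5 points (exact permutation p = 0.1), and -2.35 points at equal numbers of those cells (p = 0.7). The causes were not tested. Depth limits transcripts of few UMIs, such as Ovol2 and Gzmd.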
